A study of Mus musculus with 6 samples.

Results

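The 10 genes described here encode the cyclins, cyclin-dependent kinases and kinase inhibitors that act in the G1 phase of the cell cycle: Ccnd1, Ccnd2, Ccnd3, Ccne1, Ccne2, Cdk2, Cdk4, Cdk6, Cdkn1b and Cdkn1c. They were taken by symbol from a table of 24421 genes, and all 10 were among the 13010 genes with enough reads to be tested. The RNA came from hearts of C57BL6/J mice aged 4 weeks, and no genotype or treatment separated the groups. There were 2 libraries of RNA pulled down with an antibody against Cnot3 (Cnot3 RIP, for RNA immunoprecipitation), 2 pulled down with control IgG (control IgG RIP, called the IgG control below) and 2 of lysate RNA with no pulldown (Input). Cnot3 is a subunit of CCR4-NOT, the complex that removes the poly(A) tails of cytoplasmic mRNAs, and the contrast with control IgG asks which mRNAs the Cnot3 antibody brought down above background. Nothing in the labels says whether replicates were separate hearts. Each p-value below sets a difference between groups against the spread between these libraries, estimated in part over all genes. That spread may be technical.

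D-type cyclins bind Cdk4 and Cdk6 and phosphorylate the retinoblastoma protein, which frees E2F transcription factors. E2F factors then drive transcription of the E-type cyclins, which bind Cdk2 and carry the cell into S phase. Cdkn1b (p27) and Cdkn1c (p57) bind cyclin-kinase complexes and hold cells out of division. Heart muscle cells of the mouse leave the cell cycle soon after birth, while endothelial cells, fibroblasts and leukocytes of the same organ can still divide, so RNA from whole heart mixes cells in different states. In such bulk RNA, fewer cells of a type and less RNA per cell cannot be told apart.

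CCR4-NOT is brought to mRNAs by microRNA-bound Argonaute complexes, Pumilio proteins and proteins that bind AU-rich elements, and these act mostly in the 3′ UTR. The longest 3′ UTR annotated for each member in GENCODE M21 (mm10) was therefore searched on the sense strand for ATTTA, for TATTTAT (which contains ATTTA), for the Pumilio motif TGTANATA, for CTACCTC, the match to the let-7 seed, and for TGCTGCT, the match to the seed shared by miR-15a and miR-16. The microRNAs are shown to let the seed be compared with the sites, with bases 2 to 8 in capitals, as given by RefSeq for GRCm38.p6.
mmu-let-7a-5p: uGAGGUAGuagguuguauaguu
mmu-miR-15a-5p: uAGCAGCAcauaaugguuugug
mmu-miR-16-5p: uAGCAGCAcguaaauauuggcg
All 3 D-type cyclins, Ccne1 and Cdk6 held TGCTGCT, 5 of 10 members, against 20.3% of 21021 protein-coding genes. Among genes with 3′ UTRs within 1.2 times the length of the member's, the share was 36.4% for Ccnd1, 55.4% for Ccnd2, 15.5% for Ccnd3, 9.39% for Ccne1 and 69.5% for Cdk6. Their sites are printed 5′ to 3′ with the seed match in capitals, since all D-type cyclins share them.
Ccnd1, chr7:144930394-144930415, minus strand: tgtgcatgccaccaTGCTGCTg
Ccnd2, chr6:127128541-127128562, minus strand: aatgtttcacggtgTGCTGCTa
Ccnd3, chr17:47599280-47599301, plus strand: actgttgctttgctTGCTGCTt
Ccne1, chr7:38098023-38098044, minus strand: tcttattttgtaagTGCTGCTa
Cdk6, chr5:3524531-3524552, plus strand: caagttgcacagggTGCTGCTa
Cdk6 had 3 such matches in a 3′ UTR of 10217 bases, longer than 99.7% of all, and 2 of the 3 overlapped each other. Cdk4 alone of the members held the let-7 match CTACCTC, which was in 9.02% of all 3′ UTRs and 6.92% of those of similar length.
Cdk4, chr10:127067659-127067680, plus strand: ctagggcccgaggcCTACCTCc

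Ccne2 and Cdkn1b were the 2 members with the Pumilio motif, which 23.2% of all 3′ UTRs contained, and each had it 2 times. The 4 sites are printed with the motif in capitals because these 2 genes had the largest log2 fold changes of the 10 over the IgG control, given below; whether the motif bears on them was not tested.
Ccne2, chr4:11204137-11204158, plus strand: aacttgcTGTATATAgaatagc
Ccne2, chr4:11204366-11204387, plus strand: actaaatTGTACATAtgtatta
Cdkn1b, chr6:134924476-134924497, plus strand: ctacctgTGTATATAgttttta
Cdkn1b, chr6:134925230-134925251, plus strand: gtgcctgTGTATATAactctgt
ATTTA stood in 9 of 10 members, all but Ccne1, and in 65.2% of all 3′ UTRs, while TATTTAT stood in 6 of 10 members and 27.6% of all. Cdkn1b held 10 copies of ATTTA and 3 of TATTTAT, and Ccne2 7 and 1. Longer 3′ UTRs hold more matches: among genes with 3′ UTRs within 1.2 times the length of that of Cdkn1b, 48.8% had the Pumilio motif and 57.2% had TATTTAT, and for Ccne2 these shares were 30% and 36.3%. A match describes the annotated sequence only, and which 3′ UTR ends the heart uses was not measured.

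Total depth ran from 15713318 to 33479580 reads per library, of which the ribosomal RNA precursor Rn45s took 51.11% to 79.23%. Values below are scaled CPM, the reads of a gene relative to all reads of its library after correction for composition, and 3 reads correspond to 0.0899 to 0.277 scaled CPM. Muscle markers were present, as the label heart calls for: all 11 cardiomyocyte markers had reads in every library, with sums of 49100 to 139000 scaled CPM. Endothelial, fibroblast, smooth muscle and pericyte markers were also all detected. Of 4 erythroid markers, 3 were listed at 0 in every library, while Alas2 had reads in every library. Why the 3 stood at 0 was not tested.

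The Input libraries show the levels of these transcripts in the lysate, compared between genes as scaled CPM per kilobase of the longest annotated coding transcript. Ccnd2 led with 12.5 ± 0.517 (SD, n = 2), followed by Ccnd1 with 8.71 ± 1.64, Cdk4 with 5.04 ± 0.322 and Ccnd3 with 4.35 ± 0.216. Cdkn1b followed with 2.73 ± 0.108. Cdk2 and Cdkn1c, at 2.096 ± 0.239 and 2.05 ± 0.0583, overlapped. Cdk6, with 0.477 ± 0.0284, was the lowest of the 3 kinases. Ccne1 at 0.191 ± 0.140 and Ccne2 at 0.133 ± 0.0291 overlapped at the bottom, each with 12 or fewer reads per Input library. Neighbours not named as overlapping had separate values in the 2 Input libraries. The places of Ccnd3 and Cdk2 depended on the length used. Over the union of all annotated exons, Ccnd3 had 1.01 and 1.08 scaled CPM per kilobase in the Input libraries and Cdk2 had 0.876 and 0.745. Both then lay below Cdkn1b, with 2.66 and 2.81, and Cdkn1c, with 1.95 and 1.87.

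**Figure D1:**
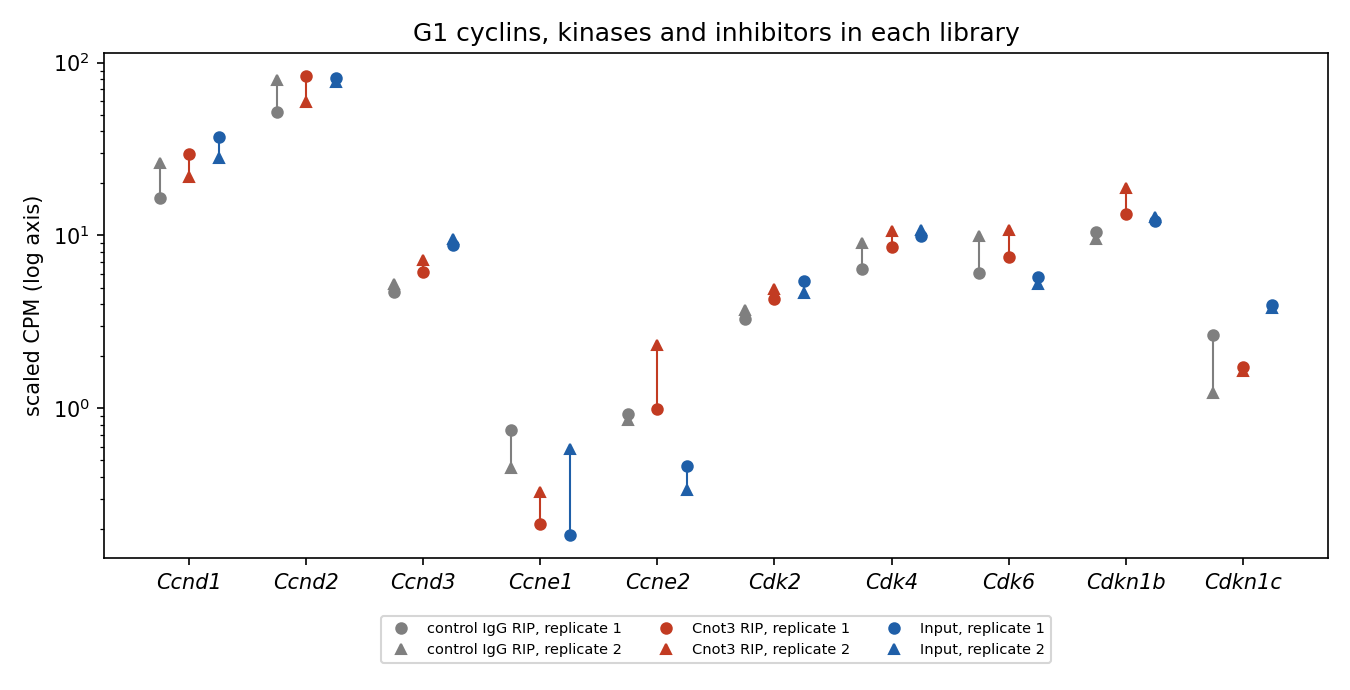
Scaled CPM (log axis) of the 10 genes in each of the 6 libraries, circles for replicate 1 and triangles for replicate 2, joined by a line within a group. Ccnd2 is the highest in all libraries at 52.1 to 83.7, the 3 groups of Ccnd3 do not overlap, and Ccne1 and Ccne2 lie below 2.4.

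None of the 10 genes passed the limma test in the contrast of Cnot3 RIP with the IgG control at an adjusted p under 0.05, where 1.54% of all tested genes were higher and 0.277% lower. Before adjustment, only Cdkn1b had a p under 0.05, on the higher side, beside 10.9% of genes higher and 6.33% lower. The quasi-likelihood test of edgeR (1.86% of genes higher, 0.415% lower) and DESeq2 (4.33% and 1.21%) also called 0 of 10. Of the members, 8 had a log2 fold change above 0, as did 49.7% of all genes, and their median was 0.30 against -0.0029 for all genes tested. Both Cnot3 RIP libraries lay above both control libraries for 4 members (Ccnd3, Ccne2, Cdk2 and Cdkn1b), against 24% of all genes, and below them for Ccne1, against 21.8% of all genes.

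**Figure D2:**
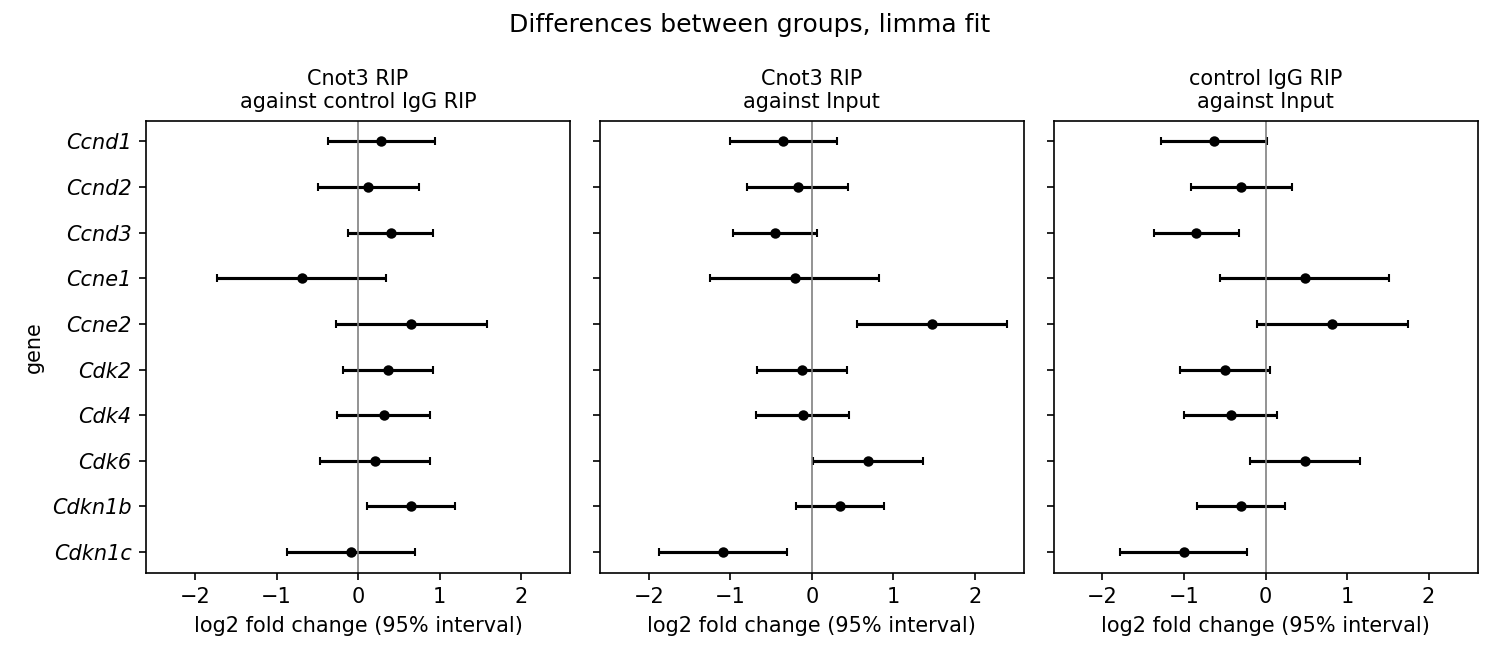
Log2 fold change (x axis) of each gene with its 95% confidence interval from limma in the 3 comparisons, 2 libraries a group. The interval of Cdkn1b lies above 0 against the IgG control, those of Ccne2 and Cdk6 above 0 and that of Cdkn1c below 0 in Cnot3 RIP against Input, and those of Ccnd3 and Cdkn1c below 0 in the IgG control against Input, none of them past the threshold after adjustment.

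Among the D-type cyclins, which pass growth factor signals to the cell cycle, Ccnd2 was the most abundant. Ccnd2 stood at 83.7 and 58.9 scaled CPM in Cnot3 RIP, 52.1 and 79.6 in the IgG control and 81.6 and 77.0 in Input. The groups overlapped fully, and its log2 fold change over the IgG control was 0.12 (SE 0.27, limma adjusted p = 0.896), with a 95% interval of -0.49 to 0.74. Ccnd1, the D-type cyclin best known from tumours, had 29.6 and 21.7 scaled CPM in Cnot3 RIP, 16.4 and 26.2 in the IgG control and 36.9 and 28.2 in Input. Here too Cnot3 RIP overlapped both other groups, and the log2 fold change over the IgG control was 0.29 (SE 0.29, limma adjusted p = 0.718, interval -0.37 to 0.94). Without IgG control replicate 1 the log2 fold changes of Ccnd1 and Ccnd2 were -0.08 and -0.21, so their sign rested on that library, and that of Ccnd2 was also -0.12 without Cnot3 RIP replicate 1.

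Ccnd3, a D-type cyclin found in many differentiated tissues, shared the order of group means of Ccnd1 and Ccnd2. Its groups, unlike theirs, were all separate. It stood at 6.16 and 7.19 scaled CPM in Cnot3 RIP, 4.73 and 5.26 in the IgG control and 8.87 and 9.51 in Input. The 3 groups did not overlap, with Input highest, Cnot3 RIP between and the IgG control lowest. The difference of the IgG control from Input was the larger, at -0.85 on the log2 scale (SE 0.23, limma adjusted p = 0.0721), and that of Cnot3 RIP from the IgG control was 0.40 (SE 0.23, limma adjusted p = 0.441). None of the alternative settings, tests or left-out libraries brought a difference of Ccnd3 past the threshold.

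Ccnd1 and Ccnd2 were lowest in the same libraries as the summed markers of endothelium, fibroblasts, and smooth muscle and pericytes. Both cyclins had their 2 lowest values in IgG control replicate 1 and Cnot3 RIP replicate 2. The same 2 libraries were lowest for the summed markers of endothelium (384 and 326 scaled CPM, against 414 to 545 in the other 4), of fibroblasts (537 and 473, against 601 to 951) and of smooth muscle and pericytes (238 and 216, against 253 to 431). The leukocyte sum was also lowest in these 2 libraries, at 78.7 and 58.5 scaled CPM, against 84.2 to 107 elsewhere. The sum of the cardiomyocyte markers was highest in IgG control replicate 1, at 139000, and 49100 to 86200 elsewhere. Ttn alone, at 96880 scaled CPM, made up most of the sum in that library, while Pln had its lowest value there. The order of the other 4 libraries differed: relative to the mean of the 6 libraries, Ccnd1 was highest in Input replicate 1, at 1.39, where the fibroblast sum was at 1.07, and the fibroblast sum was highest in Cnot3 RIP replicate 1, at 1.37. Ccnd3 had its lowest values in both IgG control libraries. Between Cnot3 RIP and the IgG control, 0 of 9 endothelial, 0 of 8 fibroblast and 0 of 7 smooth muscle and pericyte markers passed. Over all genes only 1.54% were higher and 0.277% lower there, so few calls could arise among so few markers. Single markers often did not follow their sum. Cdh5, Col3a1 and Acta2 did have their 2 lowest values in IgG control replicate 1 and Cnot3 RIP replicate 2. Kdr and Notch3, however, were lowest in Input replicate 2, and Pdgfrb and Myh11 in both Input libraries. Vwf was highest in IgG control replicate 1 and Tcf21 in Cnot3 RIP replicate 2. The part of cell makeup in the values of Ccnd1 and Ccnd2 was not tested.

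**Figure D3:**
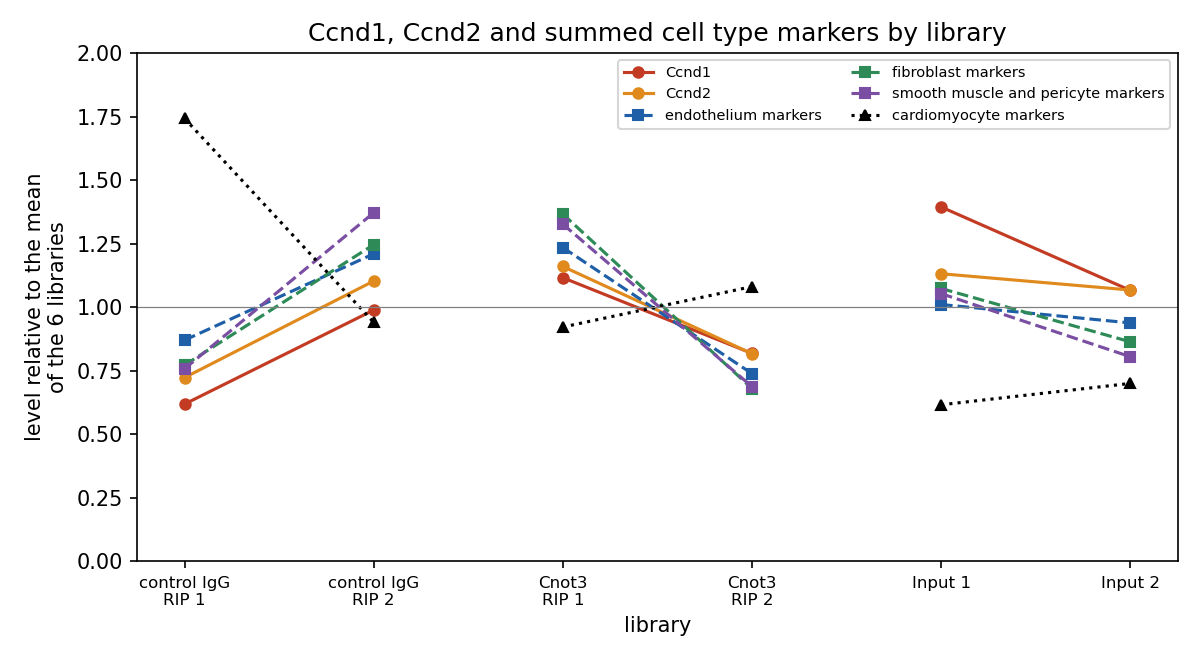
Level of Ccnd1, Ccnd2 and summed cell type markers in each library, divided by the mean of that row over the 6 libraries (y axis); lines join the replicates of a group. Ccnd1 and Ccnd2 are at 0.618 and 0.722 in IgG control replicate 1 and at 0.818 and 0.817 in Cnot3 RIP replicate 2, where the endothelial, fibroblast and smooth muscle sums are also lowest.

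The E-type cyclins were near the limit of detection. Ccne2 had 28 and 78 reads in Cnot3 RIP, 16 and 19 in the IgG control and 5 and 7 in Input, or 0.997 and 2.34, 0.923 and 0.861, and 0.462 and 0.338 scaled CPM. All groups were separate, with Cnot3 RIP highest and Input lowest, although Cnot3 RIP replicate 1 was barely above the IgG control. The log2 fold change of Cnot3 RIP over Input was 1.47 (SE 0.41, limma adjusted p = 0.0572), 2.78-fold, the largest of any member in any of the 3 comparisons. It passed without Cnot3 RIP replicate 1 (1.97, limma adjusted p = 0.0159) and without composition scaling (2.22, limma adjusted p = 0.00223), while without Cnot3 RIP replicate 2 it was 0.93 with a limma adjusted p of 0.309, the highest of the alternatives. Over the IgG control the log2 fold change was 0.65 (SE 0.41, limma adjusted p = 0.486), and leaving out Cnot3 RIP replicate 2 gave 0.13, leaving out replicate 1 gave 1.18.

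Ccne1 was the rarer of the pair in the pulldowns. It had 6 and 11 reads in Cnot3 RIP, 13 and 10 in the IgG control and 2 and 12 in Input. In scaled CPM these were 0.214 and 0.330, 0.750 and 0.453, and 0.185 and 0.579, with Input replicate 1 under the level of 3 reads in that library. Cnot3 RIP lay below the IgG control in both libraries, the opposite side from Ccne2, by -0.69 on the log2 scale (SE 0.46, limma adjusted p = 0.514) and an interval from -1.73 to 0.34. No difference was detected. Ccne2 made up 82.35% and 87.64% of the reads of both E-type cyclins in Cnot3 RIP, 55.17% and 65.52% in the IgG control and 71.43% and 36.84% in Input. These shares rest on 19 to 89 reads per library, except in Input replicate 1 with 7 reads.

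The kinases of G1 stood at moderate levels. Cdk4, a partner of the D-type cyclins, had 8.62 and 10.6 scaled CPM in Cnot3 RIP, 6.40 and 9.06 in the IgG control and 9.88 and 10.8 in Input. Its log2 fold change over the IgG control was 0.31 (SE 0.25, limma adjusted p = 0.616), and the libraries of those groups overlapped. Cdk2, the partner of the E-type cyclins, had 4.31 and 4.89 scaled CPM in Cnot3 RIP, 3.29 and 3.72 in the IgG control and 5.45 and 4.64 in Input. Control IgG RIP was below both other groups without overlap, and the log2 fold change of Cnot3 RIP over it was 0.37 (SE 0.25, limma adjusted p = 0.515).

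Cdk6, the other D-type cyclin partner and the member with the longest 3′ UTR, was lowest in Input. It had 7.52 and 10.8 scaled CPM in Cnot3 RIP, 6.06 and 9.97 in the IgG control and 5.73 and 5.26 in Input. Both pulldowns lay above Input and overlapped each other, with log2 fold changes over Input of 0.69 (SE 0.30, limma adjusted p = 0.173) in Cnot3 RIP and 0.48 (SE 0.30, limma adjusted p = 0.347) in the IgG control. Cdk4 gave values of -0.11 and -0.43 in the same 2 contrasts. Cdk6 thus made up 46.58% and 50.63% of the reads of these 2 kinases in Cnot3 RIP, 48.61% and 52.38% in the IgG control and 36.69% and 32.73% in Input. The difference between the 2 kinases was not tested, and the contrasts with Input share the Input libraries.

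The inhibitors differed in their pattern. Cdkn1b had 13.4 and 18.8 scaled CPM in Cnot3 RIP, 10.4 and 9.60 in the IgG control and 12.1 and 12.8 in Input. Cnot3 RIP was above both other groups in both libraries, at 16.1 ± 3.80 against 10.02 ± 0.589 in the IgG control (SD, n = 2). The log2 fold change of 0.65 (SE 0.24, interval 0.11 to 1.19) was larger than that of 88.2% of all genes, with an unadjusted limma p of 0.0232 and an adjusted p of 0.202. Against the IgG control, none of the alternative settings, tests or left-out libraries brought Cdkn1b past the threshold. With single libraries left out, its log2 fold change in that contrast ran from 0.42 to 0.90. In Cnot3 RIP against Input, Cdkn1b passed with library size only (limma adjusted p = 0.0018), which shifts all genes.

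Cdkn1c, which is imprinted and expressed from the maternal allele, was highest in the lysate. It had 1.75 and 1.65 scaled CPM in Cnot3 RIP, 2.65 and 1.22 in the IgG control and 3.97 and 3.81 in Input. Both pulldowns were below Input without overlap, with log2 fold changes of -1.09 (SE 0.35, limma adjusted p = 0.0824) in Cnot3 RIP, with 1.89% of genes below that value, and -1.002 (SE 0.35, limma adjusted p = 0.120) in the IgG control. The value of the IgG control was -0.51 without IgG control replicate 2 and -1.51 without replicate 1. Cnot3 RIP and the IgG control did not separate for Cdkn1c, with a log2 fold change of -0.087 (limma adjusted p = 0.948).

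Against Input, 0 of 10 members were called in Cnot3 RIP by limma, where 5.86% of genes were higher and 2.47% lower. Without adjustment, 2 members had a p under 0.05 on the higher side (Ccne2 and Cdk6, with 15.5% of all genes) and 1 on the lower side (Cdkn1c, with 11.8%). The counts of members from edgeR (6.19% of genes higher, 2.7% lower) and DESeq2 (8.06% and 3.92%) were also 0, with no adjusted p for Ccne2 from DESeq2. In every comparison, a gene without an adjusted p from DESeq2 was counted as not called. Both Cnot3 RIP libraries were above both Input libraries for Ccne2, Cdk6 and Cdkn1b, 3 members, against 30.6% of genes, and below them for Ccnd3 and Cdkn1c, 2 members, against 26.9%. A log2 fold change above 0 was found for 3 members and for 53.8% of genes. For the IgG control, 0 of 10 were called against Input by limma (2.58% of genes higher, 1.49% lower), edgeR (1.69% and 0.915%) or DESeq2 (3.37% and 2.09%). Unadjusted limma p under 0.05 were found for Ccnd3 and Cdkn1c, both lower, where 13.3% of all genes were higher and 11.7% lower. Both control libraries lay below both Input libraries for 6 members, against 29.3% of all genes, and above for 2, against 29.7%, and 3 members and 50.5% of genes had a log2 fold change above 0. The median log2 fold change of the members was -0.15 in Cnot3 RIP against Input and -0.37 in the IgG control against Input, beside 0.061 and 0.0073 over all genes. The comparisons share libraries, so these values are not independent. Scaling shifted all genes against Input: with the CPM as deposited, the medians of all genes were 1.02 and 0.70 and those of the members 0.90 and 0.38, so the median of the members stayed below that of all genes, while the sign of several members turned.

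Several members share exon bases with a gene on the other strand, and the strand setting of the counting is not given in the sources used here, so reads in the shared bases could come from either gene. The shared part was 30.7% of the exon bases of Cdkn1c (with Gm44732), 23.4% of Ccnd1 (with LTO1), 19.7% of Cdk4 (with Tspan31) and 17.4% of Ccne2 (with Ints8). It was 7.86% of Ccnd2, over both of its antisense genes, and 4.11% or less of Ccnd3, Cdk2 and Cdk6, and there was none for Ccne1 and Cdkn1b. In mm10 the members lie on chromosome 7 (Ccnd1, 144929931 to 144939925; Cdkn1c, 143458339 to 143461050; Ccne1, 38097984 to 38107534), chromosome 6 (Ccnd2, 127125162 to 127152193; Cdkn1b, 134920401 to 134925513), chromosome 17 (Ccnd3, 47505051 to 47599691) and chromosome 4 (Ccne2, 11191351 to 11204779). Cdk2 and Cdk4 are both on chromosome 10, at 128697939 to 128705031 and 127063534 to 127067920, and Cdk6 is on chromosome 5, at 3341485 to 3531008. All are annotated as protein-coding.

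Of 12 tested genes that act in or on the ubiquitin ligases for cyclins and p27, 2 passed against the IgG control. Both were higher, beside 1.54% of all genes higher and 0.277% lower. Skp2, the subunit of an SCF ubiquitin ligase that recognises p27, had 5.02 and 5.94 scaled CPM in Cnot3 RIP, 1.73 and 1.18 in the IgG control and 0.554 and 0.483 in Input. Fbxw7, the subunit that recognises cyclin E, had 69.4 and 113, 26.5 and 32.4, and 33.2 and 21.9 scaled CPM in the same order. Both were higher with the Cnot3 antibody than with control IgG, with log2 fold changes of 1.76 (SE 0.30, limma adjusted p = 0.0307) for Skp2 and 1.59 (SE 0.30, limma adjusted p = 0.0379) for Fbxw7. The median of that list was 0.019. Cdkn1b and the E-type cyclins, whose products these ligases remove, did not pass, and the difference between ligase and substrate transcripts was not tested.

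Among cyclins outside G1 control, 2 of 12 were higher in Cnot3 RIP than in the IgG control and 0 lower, beside the same 1.54% and 0.277% of all genes, with a list median of 0.46. Ccng2, an atypical cyclin linked to cell cycle arrest, had 23.1 and 57.8 scaled CPM in Cnot3 RIP and 4.67 and 4.98 in the IgG control (log2 fold change 2.86, SE 0.37, limma adjusted p = 0.0152). Ccnj had 10.9 and 24.3 against 3.06 and 4.21 (2.11, SE 0.36, limma adjusted p = 0.0305). Both Cnot3 RIP libraries were above all 4 others for Skp2, Fbxw7, Ccng2 and Ccnj. The calls, more than the fold changes, depended on single libraries: without IgG control replicate 1, where 0 of all genes passed, the 4 had limma adjusted p of 0.236, 0.379, 0.21 and 0.34, at log2 fold changes of 1.97, 1.41, 2.78 and 1.86. Skp2, Fbxw7 and Ccnj also failed without IgG control replicate 2 (0.112, 0.0826 and 0.0626), without Cnot3 RIP replicate 2 (0.188, 0.188 and 0.109) and without the filter on low values (0.0789, 0.0752 and 0.0744), and the smallest adjusted p over the alternatives were those of DESeq2, at 0.00217, 9.77e-05 and 6.82e-06.

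**Figure D4:**
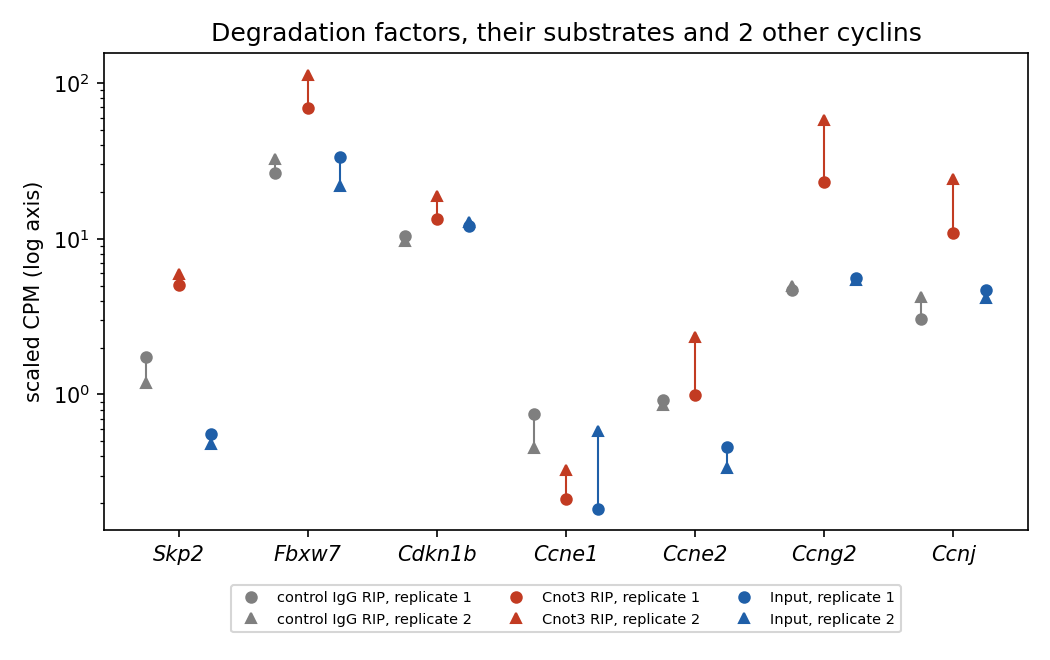
Scaled CPM (log axis) per library of Skp2 and Fbxw7, of the members whose proteins they recognise and of Ccng2 and Ccnj, circles for replicate 1 and triangles for replicate 2. Skp2, Fbxw7, Ccng2 and Ccnj, shown because they passed the test, lie higher in both Cnot3 RIP libraries than in the other 4, Ccng2 at 23.1 and 57.8 against 4.67 to 5.63.

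The targets and upstream regulators of the members showed few calls against the IgG control. Pocket proteins and E2F factors had 0 of 13 called and 11 above 0, as were 49.7% of all genes, with a median of 0.46. E2f4, a repressive E2F factor, was closest, at 1.94 on the log2 scale (SE 0.42, limma adjusted p = 0.0546). It passed with edgeR (2.18, adjusted p = 0.0418), and its adjusted p over the alternatives ran from 3.68e-05 with DESeq2 to 0.438 without IgG control replicate 1. E2f3, an activating E2F factor, had 1.22 (SE 0.33, limma adjusted p = 0.106). It passed with DESeq2 (adjusted p = 0.0172), with library size only (limma, 0.0359) and without Cnot3 RIP replicate 1 (limma, 0.00593). The third CIP/KIP inhibitor, Cdkn1a (p21), had 0.59 (SE 0.26, limma adjusted p = 0.278), close to the value of Cdkn1b.

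Of the INK4 inhibitors, which bind Cdk4 and Cdk6, 2 of 4 had enough reads: Cdkn2d had 0.79 and Cdkn2c 0.20, at limma adjusted p of 0.19 and 0.852. Among the lists of CDK-activating kinase and CDC25 phosphatases (5 tested), S phase and mitotic cyclins and kinases (8), DNA replication genes and Mki67 (14) and other cyclin-dependent kinases (14), 0 passed limma, with medians of 0.031, -0.14, 0.058 and 0.078. The genes of smallest p in these 4 lists were Mnat1 (-0.58) and Cdk7 (0.46), Aurkb (-0.55) and Ccna2 (-0.38), Mcm4 (0.36) and Mcm7 (-0.41), and Cdk8 (1.35) and Cdk10 (-1.01). Cdk8 passed with DESeq2 (adjusted p = 0.00642), with library size only (limma, 0.0318) and without Cnot3 RIP replicate 1 (limma, 0.00288), and Cdk7 and Cdk10 passed without that library (limma, 0.0444 and 0.0176). Mki67, a marker of dividing cells named after its values were seen, ranged from 6.28 scaled CPM in Input replicate 2 and 7.37 in Cnot3 RIP replicate 2 to 23.4 in Input replicate 1, 24.97 in Cnot3 RIP replicate 1 and 26.5 in IgG control replicate 2, so replicates differed more than groups.

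**Figure D5:**
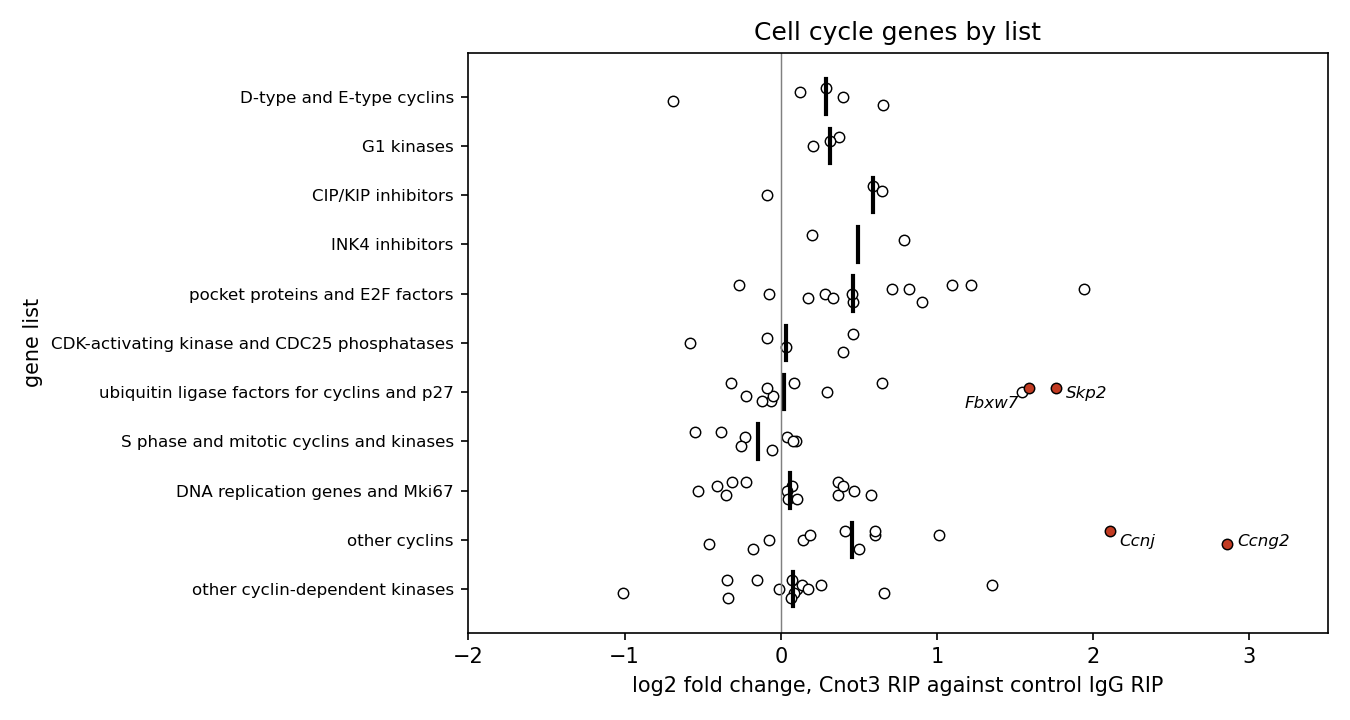
Log2 fold change of Cnot3 RIP against the IgG control (x axis) for each tested gene of 11 cell cycle lists, with filled points for genes past a limma adjusted p of 0.05 and a bar at each list's median. Only Skp2, Fbxw7, Ccng2 and Ccnj are filled, and the points of the 10 G1 genes lie between -0.69 and 0.65.

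Against Input the lists gave other calls, again beside 5.86% of genes higher and 2.47% lower in Cnot3 RIP. E2f3 and E2f7 were higher, 2 of 13 pocket proteins and E2F factors, with log2 fold changes of 1.57 and 2.19 (limma adjusted p = 0.0267 and 0.0322). E2f7 had 21 and 8 reads in Input, and its value was 1.26 without Input replicate 2 and 3.08 without Input replicate 1. Skp2 and Fbxw7 were higher at 2.90 and 1.71 (limma adjusted p = 0.0047 and 0.016). Of 12 other cyclins 4 were higher and 2 lower, among them Ccng2 at 2.67, Ccnj at 1.83, Ccnt2 at 1.33 and Ccng1, a p53 target, at -1.12. Of 14 other cyclin-dependent kinases 3 were higher, among them Cdk8 at 2.28 and Cdk13 at 0.95. Without Input replicate 2, Skp2 was the only one of these named genes to pass, at a limma adjusted p of 0.0494, and the others had 0.091 to 0.213. In the IgG control against Input, 2.58% of all genes were higher and 1.49% lower. There 1 of 2 INK4 inhibitors tested, Cdkn2d (-1.25), was lower. Of 12 other cyclins, Ccng1 (-1.26) was lower and Ccnl2 (1.06) higher, and of 14 other cyclin-dependent kinases Cdk12 (0.90) was higher. Each of these calls was lost when either library of either group was left out. In 6 lists 0 passed: those of CIP/KIP inhibitors, pocket proteins and E2F factors, and CDK-activating kinase and CDC25 phosphatases. The others were those of ubiquitin ligase factors, S phase and mitotic genes, and DNA replication genes.

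The genes most like 1 member of each role were found over all 6 libraries, by the distance between log2 values centred on their means. For Ccnd3 these were Zdhhc5, Mrpl9 and Rab35, at distances of 0.15, 0.15 and 0.18 among 4721 candidates. For Cdk2 they were Slc16a1, Tmx4 and Slc31a1, at 0.082, 0.15 and 0.16, and for Cdkn1b Rtf1, Ddx6 and Tnpo2, at 0.12, 0.15 and 0.18. With 6 libraries and so many candidates, such small distances describe a likeness in these libraries only.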

How the data were processed

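RNA from 6 mouse heart libraries was analysed from 1 table of CPM values deposited by the authors. The submitters' processing notes list CASAVA 1.8, FastQC, Bowtie2 2.2.5, TopHat2 2.1.0, edgeR and mm10; for the counter, annotation, library kit and strand, the setting is not given in the sources used. Each deposited CPM value was a whole multiple of what 1 read is worth (100% of values within 0.01 read), so reads were recovered. Genes were kept with filterByExpr (minimum count 10), TMM factors came from the kept genes (edgeR 4.0.16), and limma 3.58.1 (trended, R 4.3.3) was fitted to log2(scaled CPM + 0.25) as 3 group means over all 6 libraries. Fold changes on that scale understate the changes of low genes. Adjusted p-values are Benjamini-Hochberg over all 13010 genes, with a threshold of 0.05. An exact permutation test of 2 against 2 libraries cannot go below p = 0.333 (two-sided), so none is given.

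Alternatives were DESeq2 size factors, library size only, library size without Rn45s, a pseudocount of 1, no filter, edgeR's quasi-likelihood test and DESeq2 1.42.0 on the recovered reads, a replicate block, and leaving out each library. On the recovered reads, for Cnot3 RIP and control IgG RIP, the quasi-likelihood test gave 242 higher and 54 lower genes. The scripts were tested on simulated data. Members and gene lists were chosen with earlier results of these data known. Named list genes were those called, up to 4 a list by smallest p, or the 2 of smallest p against control IgG RIP where none was; the member compared for likeness in each role was that of smallest p in this contrast, with candidates of at least 10 scaled CPM. One gene that the rule would name is not reported here. Floors of 3 reads cover counting error only.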

Additional observations from a re-analysis of the deposited data

How the results depend on the processing

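With 2 libraries a group, single libraries moved many values. Leaving out 1 library at a time gave 0 to 1306 called genes in Cnot3 RIP against the IgG control (236 with all libraries), 12 to 1970 against Input (1083) and 20 to 895 for the IgG control against Input (530). Members called higher in Cnot3 RIP against Input were 0 to 1, and all other member counts stayed 0. Log2 fold changes that changed sign when a library was left out ranged, against the IgG control, from -0.079 to 0.62 for Ccnd1, -0.21 to 0.43 for Ccnd2, -0.17 to 0.56 for Cdk6, -0.57 to 0.38 for Cdkn1c, -0.033 to 0.97 for Cdk7, -0.23 to 0.65 for Cdkn2c, -1.36 to 0.30 for Aurkb and -1.002 to 0.21 for Ccna2. In Cnot3 RIP against Input they ranged from -0.42 to 0.080 for Ccnd2, -0.73 to 0.24 for Ccne1 and -0.25 to 0.034 for Cdk4. Scaling by library size only called 625, 7759 and 4393 genes in the 3 comparisons, with 6 members higher in Cnot3 RIP and 2 in the IgG control against Input. It turned Cdkn1c to 0.20 against the IgG control, Ccnd1, Ccnd2, Ccnd3, Ccne1, Cdk2 and Cdk4 to 0.72, 0.90, 0.60, 0.37, 0.90 and 0.94 in Cnot3 RIP against Input, and Ccnd1, Ccnd2, Cdk2, Cdk4 and Cdkn1b to 0.12, 0.46, 0.22, 0.31 and 0.44 in the IgG control against Input, since it shifts all genes. Library size without Rn45s called 603 and 209 genes against Input in Cnot3 RIP and the IgG control, no filter 27 genes against the IgG control and 560 in Cnot3 RIP against Input, DESeq2 720 against the IgG control, and edgeR 339 in the IgG control against Input. The labels do not say whether a replicate number marks a shared experiment. Same-numbered libraries deviated together between Cnot3 RIP and Input (r = 0.339 over genes). Between the IgG control and either they deviated in opposite directions (-0.317 and -0.327). Libraries of different groups thus shared part of their deviations, but not by number, and the numbers were not treated as pairing. A replicate block called 385 genes against the IgG control and 325 in the IgG control against Input, and 0 members in any comparison. Of the named list genes, it lost Ccng1, Cdk13, Cdkn2d, Ccnl2 and Cdk12 against Input (limma adjusted p of 0.0562 to 0.0931) and gained E2f4 against the IgG control (0.0259). Read numbers limit Ccne1 and Ccne2 most.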
